A study of Gallus gallus with 2 samples.

Results

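The loci described here are those to which the deposited expression table gives more than 1 gene name, joined by commas. Of the 22853 loci in the table, 22848 had an estimate in both libraries, and 503 of these carried several names. The 5 loci whose estimate had failed were dropped before names were counted. Loci on chromosomes 16 and 25 and in a stretch of chromosome 20 were left out, which removed 9 of the 503, and 494 remained. The choice used names and positions only, and no expression value, though names can be joined through assembled reads, as described below. The expression of such a locus cannot be divided between the genes it names, so each value below belongs to all of its names together.

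Skin was taken from Lueyang chickens, females of 16 weeks, either with white skin (WS) or with black skin (BS). A piece 8 mm in diameter was cut from the left back of 5 birds per color, and the RNA of 3 of them was pooled into 1 library for WS and 1 for BS. With 1 library per color there are no replicates, so no difference below could be tested across birds and no error can be given. No treatment, allele or cell sort is named in the labels of either group, and both libraries hold the RNA of whole skin.

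RNA-Seq reads are assembled into transcripts, and transcripts that overlap on the genome are gathered into a single locus. Where neighbouring genes overlap, where reads run from the end of a gene into the next, or where the annotation has broken a gene into pieces under separate identifiers, the locus takes all of their names. Expression is given in FPKM, the fragments per length of the exon model and per number of mapped fragments. The table holds no read counts per locus, so the number of fragments and the counting error behind a value are unknown. Differences are given as the log2 ratio of BS over WS after adding a pseudocount of 1 FPKM to both, which understates the difference of loci near 0.

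Among the 494 merged loci, 459 (92.9%) carried 2 names, 27 carried 3, and 4 carried 4. A further 2 had 5 names, and the longest entries, both mitochondrial, had 10 and 18. Together they held 1053 names, of which 413 were Ensembl identifiers, 53 were GGA identifiers and 587 were gene symbols, including 23 names of microRNAs. A symbol beside an identifier was the most frequent form, with 281 loci, followed by 120 loci that joined symbols of different genes and 67 with identifiers only. Small RNAs took part in 15 loci, and 11 loci joined symbols with a shared root, such as *C1QA* and *C1QB* or *HOXA6* and *HOXA7*.

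Most of the joined symbols were neighbours on the chromosome. Of 587 symbols, 529 were found in the RefSeq annotation of GRCg7b, and 520 of these lay on the chromosome that the table gives for the merged locus. Of 130 pairs of symbols that made up a locus, 114 had both members among the protein-coding genes of the annotation. In 97 of them no other protein-coding gene lay between the members. In 12 pairs up to 3 genes lay between. Only protein-coding genes were counted between the members of a pair. The exceptions were *PTPN2* and *PTPN3*, which encode protein tyrosine phosphatases and have 88 genes between them, and *ARHGEF18* and *SIN3B*, with 6 genes between them. The pairs *SAR1B* with *TYSND1* and *NAGLU* with *PURB* lay on different chromosomes, and *MMP11* with *SMARCB1* could not be judged, since the annotation lists 1 of them as another name of the other.

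For 9 symbols the chromosome of the merged locus was not that of GRCg7b. *COL1A1*, the alpha 1 chain of type I collagen, was placed on chromosome 7 and is on chromosome 27 in GRCg7b. The merged locus of *COL9A3*, a chain of the type IX collagen of cartilage, was placed on chromosome 6. Those of *CENPF*, a kinetochore protein of dividing cells, and *ABCA3*, a lipid transporter, were placed on chromosomes 17 and 18. Each of these 3 symbols also had a row of its own on its chromosome in GRCg7b, namely 20, 3 and 14. The merged loci are reported under the names in the table. The merged *COL9A3* locus had 4.37 FPKM in WS and 3.38 in BS, and the merged *ABCA3* locus had 39.1 FPKM in WS and 40.1 in BS.

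The deposited coordinates describe an interval of the genome and not a single gene. Another row of the table carried the same interval for 221 of the merged loci (44.7%), against 27.6% of loci with 1 symbol and 26.0% of all loci, and up to 23 rows shared an interval. The median interval of a merged locus was 41539 bp long, against 19364 bp for loci with 1 symbol and 10292 bp for all loci. For the 273 merged loci with an interval of their own the median was 30886 bp.

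Merged loci were rarely empty. Only 10 of 494 (2.02%) were listed at 0 in both libraries, against 16.0% of the 13103 loci with 1 symbol and 54.2% of the 3920 loci with a single identifier. These shares include chromosome Z, the unplaced contigs and the mitochondrial genome, where every locus was at 0 and few merged loci lie. Without them, 3 of 487 merged loci were at 0, and the other kinds were not compared. At least 1 FPKM in the higher library was reached by 473 of the merged loci, and the higher value of these had a median of 18.9 FPKM, with quartiles of 8.29 and 45.0 FPKM. That median was 15.7 FPKM for loci with 1 symbol, 10.5 FPKM for loci with a single identifier and 2.19 FPKM for loci with no name. The joining of names can itself depend on assembled reads, so these shares and levels are not read as a trait of the genes. All merged loci together held 1.24% of the FPKM total in WS and 1.66% in BS. The summed FPKM of the merged loci was itself lower in BS, as was the FPKM total, so the larger share is not a rise of the merged loci.

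The 10 merged loci at 0 in both libraries included all 4 of the mitochondrial genome, both of those on the unplaced contigs and the only one of chromosome Z, where *KIAA0368* is joined to gga-mir-1452. Every locus of these 3 sequences, merged or not, was listed at 0 in both libraries, namely 6 of the mitochondrial genome, 1285 of the unplaced contigs and 791 of chromosome Z. The remaining 3 joined *C1ORF94* to a GGA identifier, gga-mir-1811 to gga-mir-302c, and ENSGALG00000018151 to ENSGALG00000025690. The mitochondrial locus with 18 names (MT, 6644 to 16107 bp) includes *COX1*, *MT-ATP6*, *MT-CO3*, *MT-CYB* and *ND4*, subunits of the respiratory chain and of ATP synthase. The locus with 10 names (MT, 1227 to 6355 bp) includes *ND1* and *MT-ND2*, subunits of complex I. Since every cell uses these genes, their 0 is a listed value and is not read as an absence of expression.

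The 12 merged loci with the highest mean held 66.1% of the FPKM of all merged loci in WS and 61.9% in BS, and a single locus held 35.8% and 30.5%. This was *MAEA* with ENSGALG00000022954 (chr4:87545907-87594978), at 15914 FPKM in WS and 11299 in BS, a log2 ratio of -0.49. *MAEA* encodes a subunit of a ubiquitin ligase complex and was first described in the adhesion of erythroblasts to macrophages. The next was *COL1A1* with ENSGALG00000021145 (chr7:565997-628941), at 5377 FPKM in WS and 3199 in BS, with a log2 ratio of -0.75. Type I collagen is the main fibrous protein of the dermis. *COL1A1* lies on chromosome 27 in GRCg7b, so it is uncertain that this locus on chromosome 7 holds it. Fibroblast markers with a locus of their own summed to 26870 FPKM in WS and 17363 in BS. The median log2 ratio of these 17 markers was 0.12, however. Of the 17, 10 were higher in BS by any margin, and 1 was at least 2-fold higher in WS, against 5.69% of all loci. Their part in the difference of the *COL1A1* locus was not tested. *RPL9*, a protein of the large ribosomal subunit, was joined to GGA.41946 (chr4:71209986-71468797) at 1996 FPKM in WS and 1219 in BS, a log2 ratio of -0.71, in an interval carried by 8 rows. All 3 loci were higher in WS and less than 2-fold apart.

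**Figure D1:**
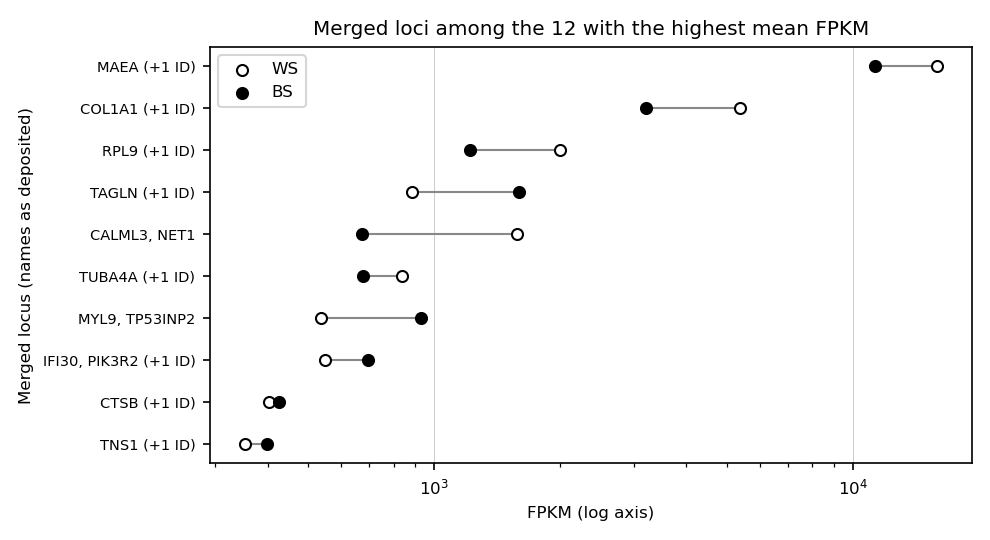
FPKM in WS (open circles) and BS (filled circles) of 10 of the 12 merged loci with the highest mean, on a log axis, with a line joining the values of a locus and identifiers counted in brackets as ID. The locus of *MAEA* lies at 15914 and 11299 FPKM, and the widest gap is that of *CALML3* with *NET1*, at 1581 FPKM in WS and 674 in BS.

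Among the 12 were also genes of contractile cells and of the cytoskeleton. *TAGLN*, an actin-binding protein of smooth muscle, joined to ENSGALG00000007180 (chr24:5347313-5366019), stood at 884 FPKM in WS and 1592 in BS, a log2 ratio of 0.85. *MYL9*, a regulatory light chain of smooth muscle myosin, shared a locus with *TP53INP2*, a regulator of autophagy (chr20:443131-535448), at 538 FPKM in WS and 931 in BS, a log2 ratio of 0.79. Both were higher in BS, by 1.80-fold and 1.73-fold. *TUBA4A*, an alpha tubulin, had 839 FPKM in WS and 676 in BS (chr7:23586545-23763395), and *TNS1*, the focal adhesion protein tensin 1, had 353 FPKM in WS and 398 in BS (chr7:23911037-24228415). Their log2 ratios of -0.31 and 0.17 were small beside those of *TAGLN* and *MYL9*. Separate rows of *TUBA4A* went the other way and are described below.

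Lysosomal genes were also among the 12. *IFI30*, a thiol reductase of lysosomes that prepares antigens, shared a locus with *PIK3R2*, a regulatory subunit of phosphoinositide 3-kinase (chr28:3548766-3570830), at 547 FPKM in WS and 696 in BS. *CTSB*, the lysosomal protease cathepsin B, stood at 403 FPKM in WS and 427 in BS (chr3:110161010-110183312). The log2 ratios were 0.35 and 0.08, the latter being the closest to 0 of the 12. The locus of *CALML3* with *NET1* was at least 2-fold apart and is described below.

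At least 2-fold apart after the pseudocount were 34 of the 473 merged loci with 1 FPKM or more (7.19%), against 10.3% of all 15020 loci that pass the same limit. The share was 5.02% for loci with 1 symbol, 21.9% for those with a single identifier and 20.7% for those with no name, so that the merged loci lay nearer to the loci with 1 symbol. In BS, 21 merged loci (4.44%) were at least 2-fold higher, against 4.61% of all loci. In WS, 13 (2.75%) were at least 2-fold higher, against 5.69% of all loci. The median log2 ratio was -0.10 for merged loci and -0.06 for all loci, 77.2% of merged loci lay within 1.5-fold against 73.4% of all loci, and the Spearman correlation of WS with BS was 0.947 across 473 merged loci and 0.917 across all 15020. These correlations are across loci of the same pair of libraries, which are not independent replicates.

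The balance of the directions depended on how the libraries were scaled. Of all loci, 693 reached 2-fold in favor of BS and 855 in favor of WS as deposited, which became 883 and 682 when the totals without the 50 most abundant loci were set equal, a factor of 0.13 on BS on the log2 scale. The corresponding merged loci went from 21 and 13 to 24 and 10. The median log2 ratio of the merged loci went from -0.10 to 0.027. Each of the 3 scalings tried raised BS, so negative ratios closer to 0 than 0.13 can change sign under them, and no direction is read from those.

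**Figure D2:**
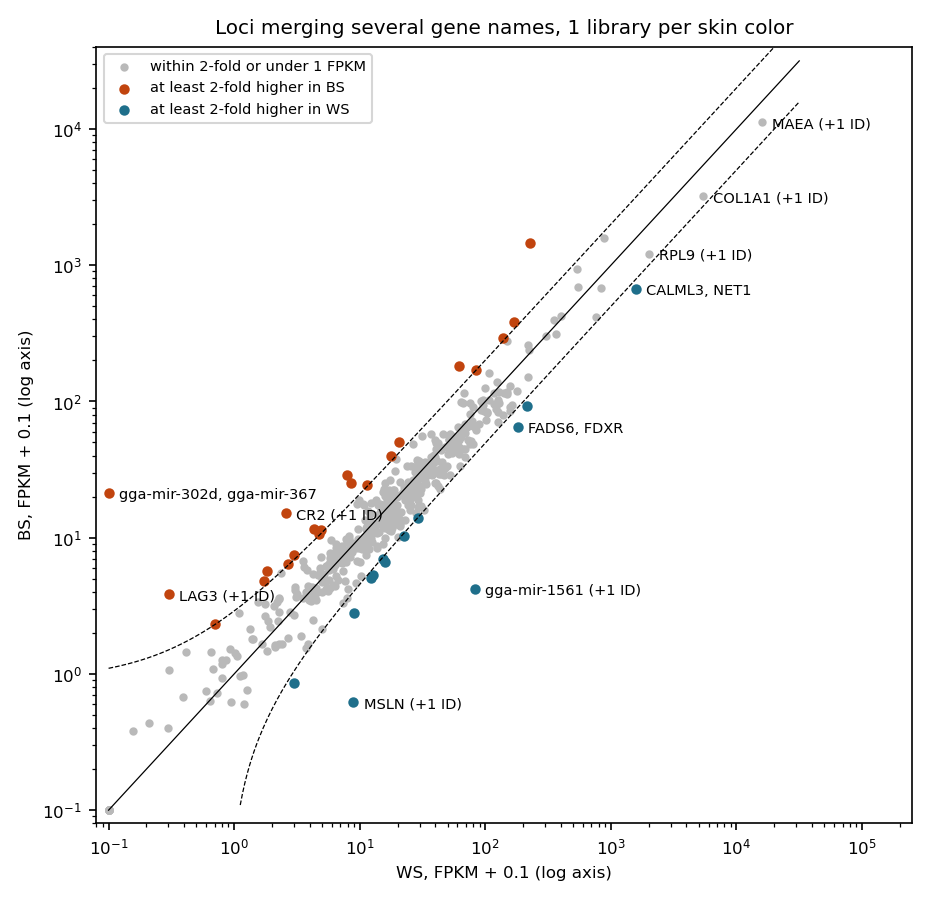
FPKM plus 0.1 of the 494 merged loci in WS (horizontal) and BS (vertical), both on log axes, with the solid line at equal values and the dashed curves at 2-fold after a pseudocount of 1. The 21 loci at least 2-fold higher in BS and the 13 higher in WS are colored, and gga-mir-302d with gga-mir-367 sits at the left edge, listed at 0 in WS.

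The share that was 2-fold apart differed with what had been joined. Among the 119 loci of different symbols with 1 FPKM or more, 3 were at least 2-fold apart (2.52%), and all 3 were higher in WS. Of the 271 loci of a symbol with an identifier, 14 reached 2-fold in favor of BS and 7 in favor of WS (7.75%). Loci with identifiers only gave 5 in BS and 2 in WS of 60 (11.7%), and loci with a small RNA gave 1 in each direction of 12 (16.7%). The 2 kinds with most loci also differed in level, since the higher value had a median of 33.2 FPKM for different symbols and of 17.4 FPKM for a symbol with an identifier. No test of these shares was possible, and the groups with small numbers move by several percent with a single locus.

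**Figure D3:**
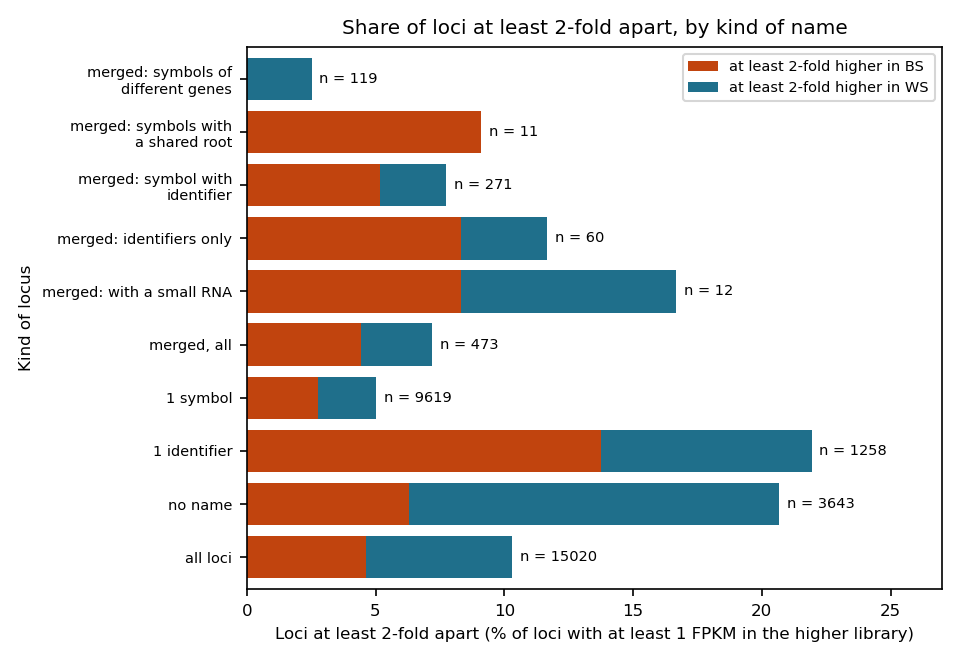
Share of loci at least 2-fold apart, in percent of the loci with 1 FPKM or more in the higher library (n beside each bar), stacked by direction, for 5 kinds of merged locus and for loci with 1 symbol, 1 identifier or no name. Merged loci together reach 7.19%, between the 5.02% of loci with 1 symbol and the 10.3% of all loci.

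The merged loci higher in BS included several receptors of immune cells. *CR2*, a receptor for complement fragments that is found on B cells in mammals, joined to ENSGALG00000023948 (chr26:2477207-2498035), had 2.48 FPKM in WS and 15.0 in BS, 6.08-fold apart with a log2 ratio of 2.21. *LAG3*, an inhibitory receptor of activated T cells in mammals, joined to ENSGALG00000022931 (chr1:80345432-80351152), had 0.201 FPKM in WS and 3.78 in BS. Its ratio was 18.8-fold, but both values were low and the log2 ratio after the pseudocount was 1.99. A row of *LAG3* alone was listed at 0 in WS and at 1.63 FPKM in BS.

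Other immune receptors and a potassium channel lay close to the 2-fold limit after the pseudocount. *VSIG4*, a complement receptor of macrophages, had 11.3 FPKM in WS and 24.5 in BS, with a log2 ratio of 1.05. *CD300A*, an inhibitory receptor of myeloid cells, had 4.79 FPKM in WS and 11.2 in BS, with a log2 ratio of 1.08. *TREM-A1* and *TREM-B1*, triggering receptors of myeloid cells, shared a locus with 4.63 FPKM in WS and 10.6 in BS, with a log2 ratio of 1.04. *KCNA3*, a potassium channel known from lymphocytes, had 1.64 FPKM in WS and 4.74 in BS, with a log2 ratio of 1.12. All of these were between 2.17-fold and 2.90-fold higher in BS, and *KCNA3* was under 5 FPKM in both libraries. *VSIG4*, *CD300A* and *KCNA3* were each joined to an Ensembl identifier.

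The remaining named loci higher in BS were of mixed kinds and included transport, matrix and nuclear genes. *SLC28A2*, a nucleoside transporter, had 20.3 FPKM in WS and 50.3 in BS (chr10:237878-282956), a log2 ratio of 1.27. *ALPK3*, a kinase of muscle on the same interval, had 18.8 FPKM in WS and 45.3 in BS, a log2 ratio of 1.22. The pair of rows thus differed by nearly the same ratio in the same interval. *BBX*, a protein with an HMG box, had 8.38 FPKM in WS and 24.97 in BS (chr1:90559865-90692528), a log2 ratio of 1.47. *MMRN1*, multimerin of platelets and endothelium, had 4.24 FPKM in WS and 11.6 in BS (chr4:36610784-36659440), a log2 ratio of 1.26. *PLAC8*, which encodes a small cysteine-rich protein, had 84.2 FPKM in WS and 171 in BS, and its 2.03-fold difference was the smallest of the 20 loci above 0 in WS.

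*C11ORF89*, joined to ENSGALG00000020498 (chr5:15147256-15194898), had 61.7 FPKM in WS and 182 in BS, with a log2 ratio of 1.54. *LSP1*, a leukocyte protein that binds actin and carries the same interval, had 135 FPKM in WS and 190.3 in BS, a log2 ratio of 0.49, so the rows of this interval differed by unequal ratios. *CCDC86*, a nucleolar protein, and *MS4A15*, a membrane protein of the MS4A family, shared a locus with 17.7 FPKM in WS and 39.9 in BS. *ART1*, a mono-ADP-ribosyltransferase, had 0.600 FPKM in WS and 2.21 in BS, and *C15ORF59* had 1.73 FPKM in WS and 5.57 in BS. These last values were low, and the log2 ratio of *C15ORF59* went from 1.27 to 0.65 with a pseudocount of 5.

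Of the 21 loci, 5 were known by identifiers only. The locus with the largest difference among them, ENSGALG00000011567 with ENSGALG00000023088 (XLOC_008159 in the table, chr2:41547697-41597937), had 7.79 FPKM in WS and 28.5 in BS, a log2 ratio of 1.75. The most abundant, ENSGALG00000000965 with GGA.27660 (XLOC_007259, chr18:431722-570079), had 170.0 FPKM in WS and 381 in BS, a log2 ratio of 1.16. *MYH2*, a myosin heavy chain of fast muscle on the same interval, went the other way, with 55.2 FPKM in WS and 33.7 in BS. A separate row of GGA.27660 in this interval was listed at 0 in WS and at 8.60 FPKM in BS. Over all 21, the higher value had a median of 21.1 FPKM and was at least 2.21 FPKM, the median fold of the 20 above 0 in WS was 2.63, and 12 had an interval of their own.

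**Figure D4:**
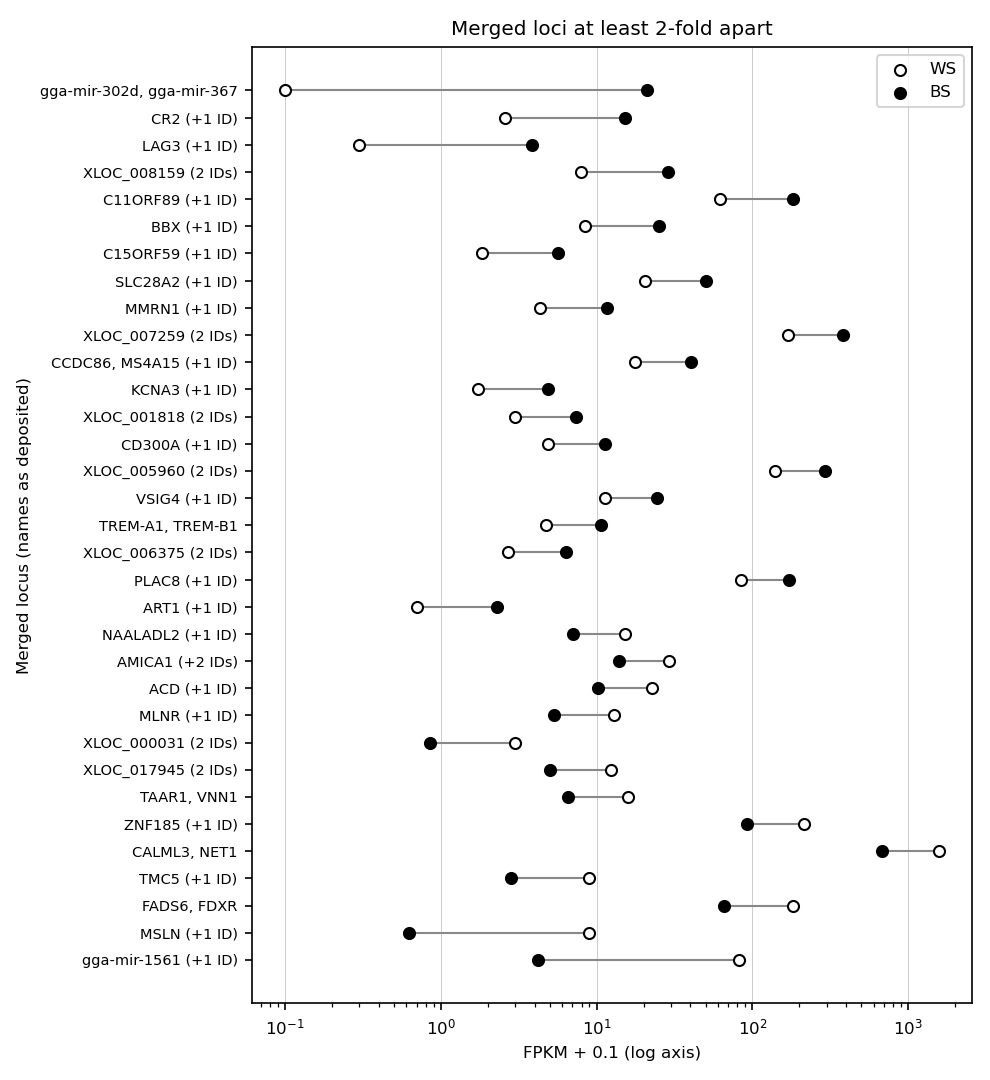
FPKM plus 0.1 in WS (open circles) and BS (filled circles), on a log axis, of 33 of the 34 merged loci at least 2-fold apart, ordered by log2 ratio. Loci with identifiers only are labelled by the locus number of the table (XLOC), and the longest lines belong to gga-mir-302d with gga-mir-367, *LAG3*, *MSLN* and gga-mir-1561.

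The loci higher in WS were fewer. *MSLN*, the cell surface protein mesothelin, joined to ENSGALG00000024055 (chr14:6029247-6044165), had 8.82 FPKM in WS and 0.521 in BS, 16.9-fold apart with a log2 ratio of -2.69. *FADS6*, of the fatty acid desaturase family, shared a locus with *FDXR*, the mitochondrial reductase that passes electrons to ferredoxin (chr18:10473963-10491478), at 181 FPKM in WS and 65.4 in BS. Its 2.76-fold difference, with a log2 ratio of -1.45, was the largest among the loci that join symbols of different genes. *CALML3*, a calmodulin-like protein of epithelia, shared a locus with its neighbour *NET1*, an exchange factor for RhoA (chr1:940518-1232745), at 1581 FPKM in WS and 674 in BS, a log2 ratio of -1.23. This was the most abundant of the 13.

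The interval of *CALML3* and *NET1* was carried by 10 rows. *GDI2*, which keeps Rab proteins soluble, was the next most abundant of them, with a log2 ratio of -0.22, so the difference of the merged locus was not shared by the whole interval. *ZNF185*, a LIM domain protein that binds actin, had 216 FPKM in WS and 92.6 in BS in an interval of its own (chr4:11292290-11358047), a log2 ratio of -1.21. *VNN1*, a pantetheinase, shared a locus with *TAAR1*, a receptor of trace amines (chr3:58733528-58775509), at 15.8 FPKM in WS and 6.50 in BS, a log2 ratio of -1.17. A separate row of *VNN1* in the same interval had 13.1 FPKM in WS and 8.63 in BS and was less than 2-fold apart.

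Channels, receptors and an adhesion protein followed at lower levels. *TMC5*, of the transmembrane channel-like family, had 8.85 FPKM in WS and 2.70 in BS (chr14:8695796-8817949), a log2 ratio of -1.41. Its relative *TMC7* on the same interval had 13.6 FPKM in WS and 7.40 in BS, a log2 ratio of -0.80. *MLNR*, the motilin receptor, had 12.7 FPKM in WS and 5.19 in BS (chr1:173409550-173416840). *AMICA1*, an adhesion molecule of leukocytes, was joined to 2 identifiers at 29.2 FPKM in WS and 13.7 in BS (chr24:5574688-5580634). *ACD*, a protein of the telomere cap, had 22.5 FPKM in WS and 10.2 in BS (chr11:1026242-1039024), and *NAALADL2*, a relative of glutamate carboxypeptidases, had 15.1 FPKM in WS and 6.92 in BS.

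These differences were near the limit. The log2 ratios of *MLNR*, *AMICA1*, *ACD* and *NAALADL2* were -1.15, -1.03, -1.07 and -1.03, and that of *ACD* went to -0.97 and -0.95 under 2 of the scalings. *AMICA1* and *NAALADL2* were less than 2-fold apart under all 3 scalings, which left 11, 10 and 10 of the 13 loci. With a pseudocount of 5, 5 of the 13 stayed 2-fold apart, namely *MSLN*, *FADS6* with *FDXR*, *CALML3* with *NET1*, *ZNF185* and gga-mir-1561. The others, *MLNR*, *AMICA1*, *ACD*, *NAALADL2*, *TMC5*, *TAAR1* with *VNN1* and the loci with identifiers only, were then less than 2-fold apart. The loci with identifiers only were ENSGALG00000023645 with GGA.939 (XLOC_017945, chr6:23959831-23965019), at 12.3 FPKM in WS and 4.95 in BS, and ENSGALG00000008483 with ENSGALG00000015642 (XLOC_000031, chr1:1298024-1720983), at 2.90 and 0.756 FPKM. Over all 13, the higher value ranged from 2.90 to 1581 FPKM with a median of 15.8, the median fold was 2.46, and 6 had an interval of their own.

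Next to *AMICA1* on chromosome 24 lay another merged locus. *MPZL2* and *MPZL3*, adhesion proteins related to myelin protein zero, were joined there (chr24:5581010-5592848), at 125 FPKM in WS and 70.3 in BS. The log2 ratio of -0.82 was less than 2-fold and went the same way as that of *AMICA1*. Both loci had intervals of their own.

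Loci with a small RNA held the extremes in both directions. MicroRNAs are cut from longer transcripts, so a value on such a locus is that of reads on the precursor or on a transcript around it, and not of the mature microRNA. FPKM is divided by length, so few fragments on a short model can give a high value. The number of fragments on these loci is unknown. The locus of gga-mir-302d and gga-mir-367, members of a cluster known from pluripotent embryonic cells in mammals (chr4:58637712-58665415), was listed at 0 in WS and at 21.1 FPKM in BS. It was the only merged locus above 0 in 1 library alone, and no fold is given against the listed 0. *LARP7*, a protein that binds the small nuclear RNA 7SK and lies in the same interval, had 13.02 FPKM in WS and 10.4 in BS. The other microRNA rows of this interval were listed at 0 in both libraries. They were gga-mir-302a, gga-mir-302b, and gga-mir-1811 with gga-mir-302c. The locus of gga-mir-1561 with ENSGALG00000018047 (chr18:6413152-6420371) had 82.2 FPKM in WS and 4.10 in BS, 20.1-fold apart with a log2 ratio of -4.03. A separate row of gga-mir-1561 in the same interval was listed at 0 in both libraries.

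The other microRNA loci were less than 2-fold apart. The locus of gga-mir-222a with an identifier had 20.2 FPKM in WS and 9.94 in BS, a log2 ratio of -0.95 that passed the 2-fold limit only with a pseudocount of 0.1. Members of the let-7 family, which is abundant in differentiated tissue, took part in 3 loci. Those of gga-let-7j with gga-let-7k had 9.44 FPKM in WS and 17.6 in BS, a log2 ratio of 0.84. Those of gga-let-7d with gga-let-7f had 9.29 FPKM in WS and 8.31 in BS. The locus of gga-let-7a-3 with gga-let-7b had 2.02 FPKM in WS and 1.54 in BS, while a separate row of gga-let-7b in the same interval had 5.04 and 5.39 FPKM. The let-7 loci thus shared no direction. The most abundant of all microRNA loci, gga-mir-6578 with an identifier, had 140.0 FPKM in WS and 114 in BS.

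**Figure D5:**
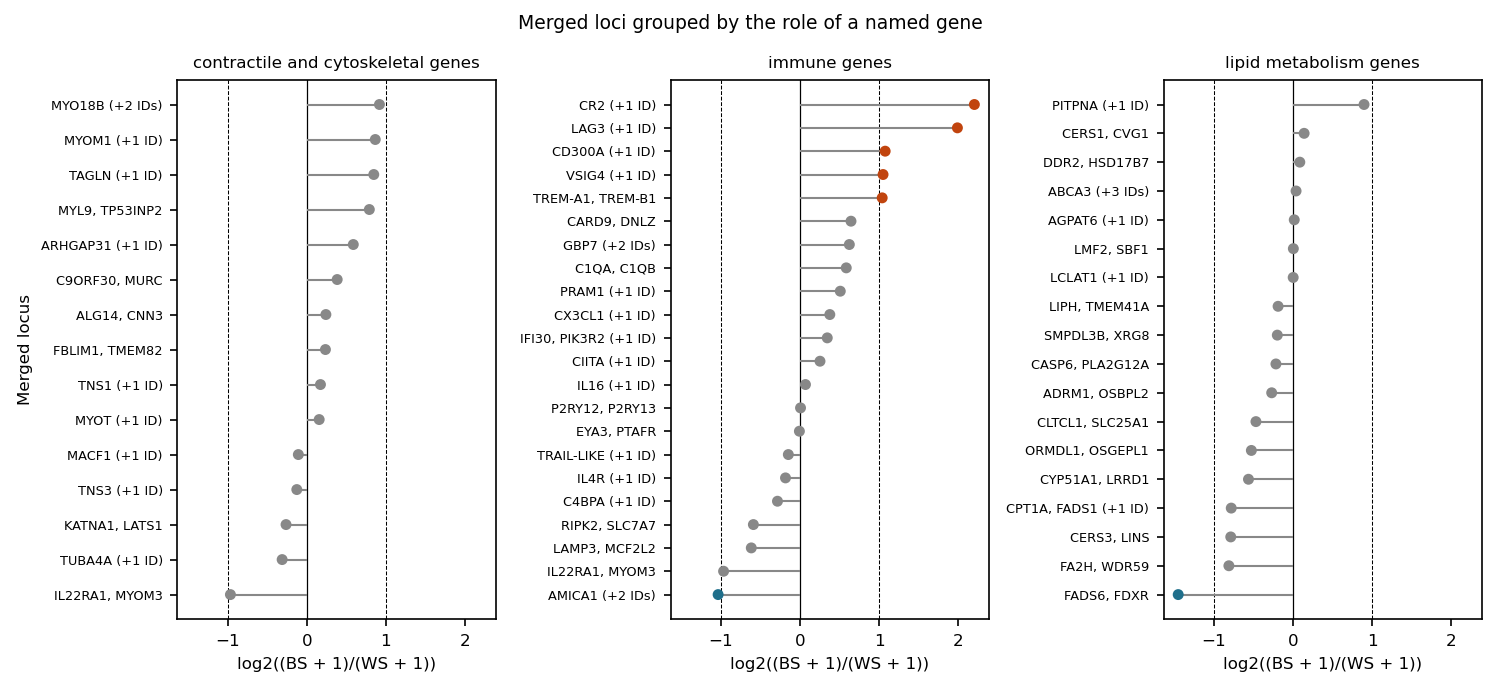
Log2 ratio of BS over WS after a pseudocount of 1 for merged loci with a contractile or cytoskeletal gene, an immune gene or a gene of lipid metabolism, with dashed lines at 2-fold and colored points for loci at least 2-fold apart. The medians of the panels are 0.24, 0.30 and -0.21.

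The named genes were further grouped by role. These groups were put together after the values were seen, so their counts are descriptions. Of 22 merged loci with an immune gene, 5 reached 2-fold in favor of BS and 1 in favor of WS, against 4.61% and 5.69% of all loci. With a pseudocount of 5, *CR2* alone remained at least 2-fold apart, at a log2 ratio of 1.42, while *LAG3* went to 0.75 and *AMICA1* to -0.87. The median log2 ratio of the 22 was 0.30, against -0.10 for all merged loci. *C1QA* and *C1QB*, chains of the first complement component, shared a locus with 107 FPKM in WS and 161 in BS, a log2 ratio of 0.59. *GBP7*, a guanylate-binding protein induced by interferon, was joined to 2 identifiers with 37.0 FPKM in WS and 57.6 in BS, and *CARD9*, an adaptor of innate receptors, shared a locus with *DNLZ* at 15.7 FPKM in WS and 25.1 in BS. These lay at 0.63 and 0.65 on the log2 scale. Other immune loci went the other way, such as *LAMP3* with *MCF2L2*, at 21.1 FPKM in WS and 13.4 in BS, and *RIPK2* with *SLC7A7*, at 19.2 FPKM in WS and 12.4 in BS. *P2RY12* and *P2RY13*, receptors of adenine nucleotides, had 9.61 FPKM in WS and 9.66 in BS.

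No marker of the leukocyte list was itself in a merged locus. Among the leukocyte markers with a locus of their own, 20 of 21 had 1 FPKM or more. Of these 20, 18 were higher in BS by any margin. Only 1 was at least 2-fold higher in BS, against 4.61% of all loci. Among the 473 merged loci, 192 were higher in BS by any margin, and this share was not counted over all loci. The median log2 ratio of the 20 markers was 0.36. The 21 markers summed to 634 FPKM in WS and 730 in BS. Their part in the values of the immune loci was not tested. In RNA from whole skin, fewer cells of a type and less RNA per cell cannot be told apart.

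Of 15 merged loci grouped here for a contractile or cytoskeletal gene, none was at least 2-fold apart, against 10.3% of all loci. The median log2 ratio was 0.24, against -0.10 for all merged loci. Both values depend on which genes were put in the group. *ZNF185*, which binds actin and had a log2 ratio of -1.21, was not among the 15. *MYO18B*, an unconventional myosin of striated muscle, had 19.3 FPKM in WS and 37.5 in BS, and *MYOM1*, a protein of the M band, had 26.4 FPKM in WS and 48.9 in BS, with log2 ratios of 0.92 and 0.87. *MYOT*, the Z disc protein myotilin, had 124 FPKM in WS and 138 in BS, and *CNN3*, a calponin, shared a locus with *ALG14* at 219 FPKM in WS and 259 in BS. These loci ran from nearly equal to nearly 2-fold higher in BS. *MYOM3*, another protein of the M band, went the other way. It shared a locus with *IL22RA1*, a receptor of interleukin 22 on epithelia, at 7.77 FPKM in WS and 3.49 in BS, the lowest log2 ratio of the group at -0.97. The markers of skeletal muscle with a locus of their own summed to 16392 FPKM in WS and 28518 in BS. Among them, *TNNC2* and *TPM2* were listed at 0, which is not read as an absence of expression. Markers of smooth muscle summed to 610.4 FPKM in WS and 1318 in BS. The part of either set of markers in these loci was not tested.

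Of 18 merged loci with a gene of lipid metabolism, *FADS6* with *FDXR* alone was at least 2-fold apart, and the share over all loci was 10.3%. The median log2 ratio of the 18 was -0.21, against -0.10 for all merged loci. *CERS3*, which makes the very long ceramides of the epidermal barrier in mammals, shared a locus with *LINS* at 164 FPKM in WS and 94.5 in BS. *CPT1A*, which brings fatty acids into mitochondria, shared one with the desaturase *FADS1* at 156 FPKM in WS and 90.5 in BS, and *FA2H*, which hydroxylates the fatty acids of sphingolipids, shared one with *WDR59* at 68.8 FPKM in WS and 38.8 in BS. Their log2 ratios were close together, at -0.79, -0.78 and -0.81. *CYP51A1*, an enzyme of sterol synthesis, shared a locus with *LRRD1* at 76.4 FPKM in WS and 51.3 in BS. *SLC25A1*, the mitochondrial citrate carrier, shared one with *CLTCL1* at 101 FPKM in WS and 72.7 in BS. *PITPNA*, which carries phosphatidylinositol between membranes, was the exception among the abundant loci, with 148 FPKM in WS and 277 in BS, a log2 ratio of 0.90. *LMF2*, a lipase maturation factor, shared a locus with *SBF1* at 303 FPKM in both libraries.

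Markers of the cell types of skin were then compared with the merged loci. Keratinocyte markers had a locus of their own in 25 cases, of which 23 had 1 FPKM or more and *KRT5* and *KRT75* were listed at 0, and their sum was 7042 FPKM in WS and 3905 in BS. Melanocyte markers summed to 115 FPKM in WS and 227 in BS, with *TYRP1*, *PMEL*, *MLANA* and *SLC45A2* listed at 0. Since every locus of chromosome Z and of the unplaced contigs was listed at 0, a marker at 0 is not read as absent. No keratinocyte or melanocyte marker was in a merged locus. Of the endothelial markers, *PECAM1* shared a locus with *POLG2*, a subunit of the mitochondrial DNA polymerase, at 63.7 FPKM in WS and 98.5 in BS. Its log2 ratio of 0.62 stood beside a median of 0.36 for the 10 endothelial markers with a locus of their own and 1 FPKM or more. The 2 smooth muscle loci, *TAGLN* and *MYL9*, had a median log2 ratio of 0.82, beside 0.97 for the 4 markers with a locus of their own. The part of cell types in the merged loci was not tested.

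Of 27 lists of cell types and pathways, 19 had a member in a merged locus, and only the lists of small RNAs, solute carriers and zinc finger proteins had a merged locus at least 2-fold apart. Of 13 merged loci with a solute carrier, *SLC28A2* was 2-fold higher in BS, and the median log2 ratio was -0.37, beside -0.02 for the 174 solute carriers with a locus of their own. *SLC19A1*, the folate carrier, had 157 FPKM in WS and 129.5 in BS, and *SLC29A1*, a nucleoside transporter, shared a locus with the chaperone *HSP90AB1* at 124 FPKM in WS and 95.6 in BS. Of 14 loci with a zinc finger protein, *ZNF185* was 2-fold higher in WS, and the median was -0.13. *ZNF385D* had 61.2 FPKM in WS and 40.8 in BS, and *ZNFX1*, joined to *CCNDBP1*, had 53.9 FPKM in WS and 48.8 in BS.

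Genes used by most cells were also among the lists. The 10 loci of small GTPases and membrane traffic had a median log2 ratio of -0.19, with *RAB8A*, a GTPase of transport to the cell surface, and *FAM32A* together at 222 FPKM in WS and 240.2 in BS. *VPS4A*, an ATPase of endosomal sorting, had 148 FPKM in WS and 114 in BS. The 9 loci of the ubiquitin pathway had a median of -0.15, and the 6 of histones and chromatin of -0.14, with *SETD7*, a lysine methyltransferase, at 116 FPKM in both libraries. The spliceosome protein *PRPF8* shared a locus with *TLCD2* at 64.2 FPKM in WS and 54.8 in BS, and the glutaminyl-tRNA synthetase *QARS* one with *QRICH1* at 30.7 FPKM in WS and 23.7 in BS. None of these lists had a merged locus 2-fold apart, but each held few loci, and the share over all loci was 10.3%.

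The ribosomal proteins *RPL9* and *RPS21*, the latter joined to *CABLES2* at 369 FPKM in WS and 314 in BS, had a median log2 ratio of -0.47, beside -0.41 for the 69 with a locus of their own. *HOXA6* and *HOXA7*, transcription factors of body pattern, shared a locus at 103 FPKM in WS and 82.7 in BS, a log2 ratio of -0.31. Cell cycle genes differed by less than 1.5-fold. *MKI67*, a protein of dividing cells, was joined to 4 identifiers at 5.33 FPKM in WS and 6.12 in BS (chr6:35361473-35381749), *CCND2*, a cyclin of G1 phase, had 20.0 FPKM in WS and 20.2 in BS, and *CENPF* had 6.07 FPKM in WS and 4.43 in BS. Of the cytokine genes, *CX3CL1* had 16.9 FPKM in WS and 22.3 in BS, *IL16* had 11.5 and 12.1 FPKM, and the receptor *IL4R* had 12.7 and 11.1 FPKM.

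Some symbols appeared both in a merged locus and in a row of their own, 25 in all. *SAR1B*, a GTPase of vesicle budding, had 38.8 FPKM in WS and 73.3 in BS in its own row on chromosome 13, but 126 FPKM in WS and 102 in BS in the merged row with *TYSND1* on chromosome 6. The directions of these rows were opposite, as were those of *CENPF*, whose own row on chromosome 3 had 3.97 FPKM in WS and 4.88 in BS beside 6.07 and 4.43 FPKM in the merged row on chromosome 17. *COL9A3* alone had 1.003 FPKM in WS and 2.15 in BS on chromosome 20, also against the direction of its merged row. The merged rows of *SAR1B*, *CENPF* and *COL9A3* lay on other chromosomes than these genes in GRCg7b. *TUBA4A* had 2 rows of its own on chromosome 1, at 1.41 FPKM in WS and 3.48 in BS and at 5.62 and 19.8 FPKM. Both went against the direction of its merged row on chromosome 7. Rows of other symbols, such as *HS3ST3A1*, *LARGE* and *USP53*, also went against their merged rows. Whether the rows of such a symbol describe the same gene was not tested. *LMF2* had 271 FPKM in WS and 203 in BS in its own row, while its merged row was equal in both libraries. *GSTA3*, a glutathione transferase, had 14.71 FPKM in WS and 23.1 in BS alone and 107 and 103 FPKM in the merged row. *C4BPA*, a complement regulator, had 21.9 FPKM in WS and 24.0 in BS alone and 117 and 95.6 FPKM in the merged row. For such symbols the table holds more than 1 value.

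Of 30 loci with 3 or more names and 1 FPKM or more, 1 was at least 2-fold higher in each direction (6.67% together), namely *CCDC86* with *MS4A15* in BS and *AMICA1* in WS. This share was close to the 7.19% of all merged loci, and the share of all loci was 10.3%. *AMICA1* was less than 2-fold apart under all 3 scalings. The 5 identifiers joined on chromosome 13 (chr13:1586972-1679123) had 128 FPKM in WS and 118 in BS. *HDAC3*, a histone deacetylase on the same interval, had 28.6 FPKM in WS and 23.9 in BS. *KIAA1731*, joined to 3 identifiers on chromosome 1 (chr1:190092297-190143597), had 3.42 FPKM in WS and 3.54 in BS, while *SNORA40*, a small nucleolar RNA in the same interval, had 1683 FPKM in WS and 999 in BS. Rows of the same interval thus stood at very different levels.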

How the data were processed

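The authors deposited the expression of each locus in FPKM, with fragments divided by the length of the exon model and by the number mapped, for 1 pooled library of WS and 1 of BS. Cuffdiff and galGal4 are named in the submitters' processing notes, Bowtie and another reference file in the methods of the study, and chromosome 1 positions run past the last gene of GRCg7b, so the build is unsettled and coordinates are as deposited. The FPKM of 18608 loci were identical in both deposited tables. The authors' columns of fold change, p value, q value and significance were not used. Symbols were matched to RefSeq (GRCg7b) for names, chromosomes and gene order only, and strand was not examined.

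Loci 2-fold apart had an absolute log2((BS + 1)/(WS + 1)) of at least 1 and at least 1 FPKM in the higher library. The script was tested on simulated data. Named by rule were the 12 loci with the highest mean, the 10 most different per direction with at least 5 FPKM, the 5 with the most names, up to 6 with a microRNA, up to 3 per gene list and up to 3 per direction listed at 0 in the other library, 72 in all. Of these, 3 are not reported here, and the groups by role leave them out. Others were named after their values were seen. The members, the rule and the 27 gene lists were chosen with earlier results of these data known. The let-7 names in the list of small RNAs and the 3 groups by role were added after the values were seen.

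Settings tried besides these were pseudocounts of 0.1 and 5, other lower limits, 3 scalings, the left-out chromosomes, merged loci without Ensembl identifiers or dates, and the removal of chromosomes at 0 throughout. The software was Python (3.11.15) with numpy (2.4.6), scipy (1.17.1), pandas (2.3.3) and, for the plots, matplotlib (3.10.9).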

Additional observations from a re-analysis of the deposited data

How the results depend on the processing

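No paired analysis was possible because there is 1 library per color, and for the same reason no library could be left out. With a pseudocount of 0.1, 21 merged loci were 2-fold higher in WS in place of 13, and 2757 of all loci were 2-fold apart in place of 1548. With a pseudocount of 5, 9 merged loci were 2-fold higher in BS in place of 21 and 5 in WS, 593 of all loci were 2-fold apart, and 13 of the 70 loci named by rule in place of 20. Requiring 5 FPKM left 934 of all loci 2-fold apart, since fewer loci entered. The median log2 ratio of merged loci went from -0.10 to 0.0054 with equal upper quartiles and to 0.027 with equal totals without the 50 most abundant loci. Without Ensembl identifiers or dates, 171 loci with 1 FPKM or more remained, with 4 higher in BS and 3 in WS, and 4 loci were listed at 0. Without the chromosomes listed at 0 throughout, 3 loci were listed at 0. Merged loci with an interval of their own, an alternative chosen after seeing the data, numbered 257 with 1 FPKM or more, with 12 higher in BS and 6 in WS, since fewer loci entered. No locus named by rule reversed its direction while 2-fold apart. Among the 34 loci, *LAG3*, *ART1*, *MSLN*, gga-mir-302d with gga-mir-367 and ENSGALG00000008483 with ENSGALG00000015642 were under 1 FPKM in the lower library, where the ratio rests on the pseudocount. Splitting a value between the names of a locus would need the reads, which were not analysed here.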
